A study of Homo sapiens with 6 samples.

Results

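The loops described here are those whose anchors both lie between positions 61105000 and 89890000 of chromosome 15 (hg19), a segment of 28.785 Mb. In HAP1 cells this segment is known to be present a further time, inserted into chromosome 19, while chromosome 15 itself keeps its own copy. The rule is one of position alone and uses no contact value. It took 717 loops, which are 46.5% of the 1543 loops on chromosome 15 and 1.53% of the 46849 loops in the whole list. Below the segment lay 633 loops, above it 178, and 15 joined the segment to its flanks (11 across the lower end and 4 across the upper end).

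HAP1 is a human cell line derived from the leukaemia line KBM-7. It is near-haploid, meaning that most chromosomes are present as single copies, but cultures drift towards diploid cells, and here the diploid cells were sorted by their Hoechst DNA stain before the assay. They were untreated, grown in IMDM with fetal bovine serum, and fixed with 1% formaldehyde and then 3 mM DSG before digestion with micrococcal nuclease (Micro-C, a form of Hi-C that cuts to nucleosomes). The 6 replicates form 1 group, with no other genotype or treatment to compare, and they were pooled into the 1 loop list, so no value here has a replicate error.

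A chromatin loop is a pair of sites on one chromosome that meet more often than their surroundings. Most such loops in mammalian cells form when the cohesin complex extrudes DNA until it is stopped by the DNA-binding protein CTCF at both anchors, and others join promoters and enhancers. A contact read carries no mark of the copy it came from, so contacts made within the copy on chromosome 15 and within the copy on chromosome 19 fall on the same hg19 positions. Loops that join the segment to its chromosome 15 flanks can only be formed by a copy in its original place, unless the ends of the inserted copy differ from the positions given. In the RefSeq gene order of GRCh38.p14, 677 genes, 245 of them protein coding, stand from RORA, a nuclear receptor gene known to lie across the lower end, to POLG, the mitochondrial DNA polymerase gene near the upper end. Between them lie, among others, MAP2K1 and SMAD3, which transmit growth factor and TGF-beta signals, the xenobiotic enzyme gene CYP1A1 and the neurotrophin receptor gene NTRK3. Loops are named below by position, since no hg19 gene annotation was used.

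Contacts inside the segment were deeper than at other chromosome 15 loops of like size. Depth was read from the donut expectation, the number of contacts that the loop caller expects in a pixel from the ring of pixels around it. The ring leaves out the loop pixel itself. Loops inside were merged from up to 66 significant pixels, however, so a broad loop can reach into its own ring. Since contacts fall with distance and rise with pixel size, each loop was compared with the median of the 15 other chromosome 15 loops of the same anchor width (5 or 10 kb) nearest in span, all within 0.32 of its span on the log2 scale. Of the 717 loops inside, 679 could be matched. Their matched depth had a median ratio of 1.84 (quartiles 1.39 and 2.28 over loops), that is 0.88 on the log2 scale, and ranged from -1.25 to 2.53. It lay above 0 for 91.2% of them. The same measure had a log2 median of 0.05 for the 595 matched loops below the segment and of -0.18 for the 168 above it.

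Taken as a whole, no other chromosome came near this level, though segments of like length within them were not examined. Over the 22 other chromosomes in the list, matched in the same way to chromosome 15 loops outside the segment, the median log2 depth ran from -0.26 on chromosome 19 to 0.20 on chromosome 1, or ratios of 0.833 to 1.15. Chromosome 19, where the inserted copy lies, thus had the lowest median of them. Its own positions outside the insertion are not a measure of the copied segment, whose reads are listed under chromosome 15.

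Read against a limit of 1.5 times the matched depth, 468 of the 679 matched loops inside were higher (68.9%, exact binomial 95% interval 65.3 to 72.4%), against 13.5% of the 43708 matched loops outside the segment on all chromosomes. Below the segment 67 of 595 (11.3%) passed this limit, and above it 14 of 168 (8.33%). In the other direction 9 loops inside (1.33%) were at least 1.5 times lower, against 17.9% outside. All intervals given here cover counting error only, because neighbouring loops share anchors and surroundings and are not independent.

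The observed contacts of the loops themselves followed with a wider spread. The median count of a loop inside was 46 contacts, with quartiles of 26 and 82 and a range of 8 to 541. For other chromosome 15 loops it was 31. Matched for span and anchor width, the median ratio was 1.57 (log2 0.65, quartiles 0.13 and 1.28). At least 1.5 times the matched count was reached by 373 loops inside (54.9%, interval 51.1 to 58.7%), against 22.2% outside, and 35 (5.15%) were as far below it, against 21.1%. Relative to their surroundings the listed loops were not stronger: the ratio of observed to expected contacts was 0.872 times that of matched loops (log2 -0.20, quartiles -0.50 and 0.22). It was above the matched value for 36.4% of the loops inside. Without matching, contacts were a median 3.71 times the expectation inside and 3.62 times outside. Only loops that the caller listed enter these ratios, and whether it listed weaker loops where the depth was higher was not tested.

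**Figure D1:**
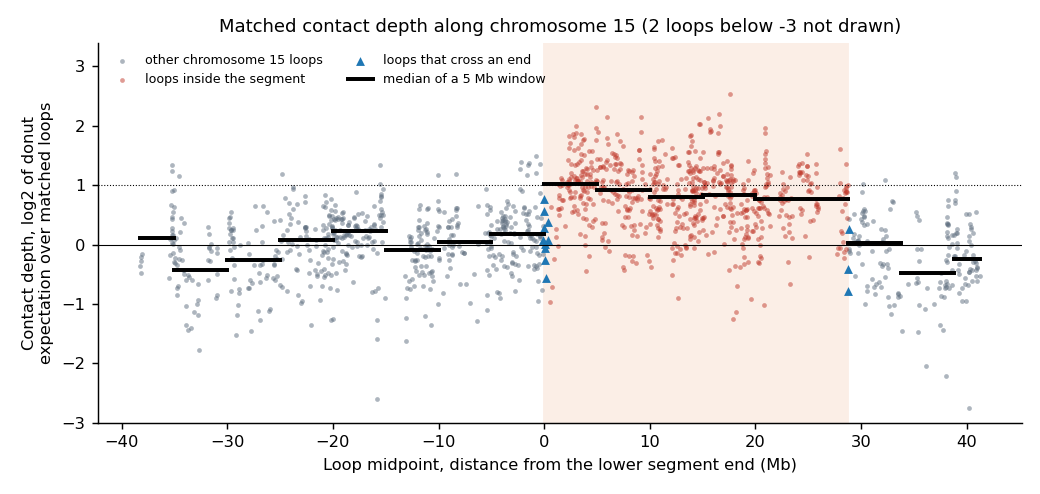
Each point is a loop on chromosome 15, placed by its midpoint as distance from the lower segment end (Mb) against its contact depth, the log2 of its donut expectation over matched loops. Red points lie inside the segment (shaded), grey points outside, blue triangles cross an end, and black bars are medians of 5 Mb windows, which lie between 0.77 and 1.02 inside and between -0.49 and 0.23 outside. The dotted line marks a log2 of 1.

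The higher depth was seen in every 5 Mb window of the segment, but not in every window of 1 Mb. In steps of 5 Mb from the lower end, the last of them cut short by the upper end, the median log2 depth was 1.02, 0.92, 0.81, 0.83, 0.77 and 0.77, so that ratios lay between 1.70 and 2.03. All 6 of these windows lay above each of the 11 windows outside, of which the 8 below ranged from -0.42 to 0.23 and the 3 above from -0.49 to 0.03. At a finer scale, 28 windows of 1 Mb inside held at least 3 matched loops. Of these, 27 had a median above 0, and 24 lay above every such window outside, where the highest reached 0.50. The highest inside were the windows that begin at 85.105 Mb (1.21, 19 loops) and 77.105 Mb (1.16, 25 matched loops).

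The 4 windows that did not stand clear of the outside were spread over the segment. One is the first Mb above the lower end, at -0.47 from 4 matched loops. The others begin at 79.105 Mb (0.28 from 23 matched loops), 88.105 Mb (0.38 from 4) and 84.105 Mb (0.40 from 10). In the window at 79.105 Mb the single loops ranged from -1.13 to 1.08. The median loop there had 23 observed contacts against 46 for all loops inside, but its loops were also longer (median span 400 kb against 245 kb). Matched for span and anchor width, observed contacts in this window had a log2 median of 0.08, against 0.65 for all loops inside.

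Over both anchor widths together, the excess in depth was greatest for short loops. Under 100 kb, the 185 matched loops inside had a median log2 depth of 0.98 (ratio 1.98). It was 0.93 at 100 to 200 kb (119 loops), 0.79 at 200 to 500 kb (220 loops) and 0.69 at 500 kb to 1 Mb (131 loops). At 1 Mb or more, where only 24 of 50 loops could be matched, it was 0.52 (ratio 1.44, quartiles 0.11 and 0.91). The fall was one of 5 kb loops, which went from 0.98 under 100 kb to 0.62 at 500 kb to 1 Mb and 0.35 at 1 Mb or more. Loops with 10 kb anchors showed no such fall from 200 kb up: they stood at 0.77 at 200 to 500 kb (23 loops), 0.97 at 500 kb to 1 Mb (27 loops) and 0.87 at 1 Mb or more (8 matched loops). Under 200 kb none of them could be matched. The 10 kb loops of 1 Mb or more outside the segment themselves stood at -0.49 (9 matched loops). The fall from class to class was not tested.

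Observed counts, again over both widths, narrowed with span. Median counts under 100 kb were 85 inside against 42 outside, a ratio of 2.02. Between 500 kb and 1 Mb they were 26 against 20, and at 1 Mb or more 17 against 16, a ratio of 1.06. The smallest count in the list is 8, so that long loops, whose expected counts are a few contacts, were counted close to the lowest value listed on both sides. Inside the segment 52 loops (7.25%) had fewer than 16 contacts, against 10.2% of the other chromosome 15 loops.

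**Figure D2:**
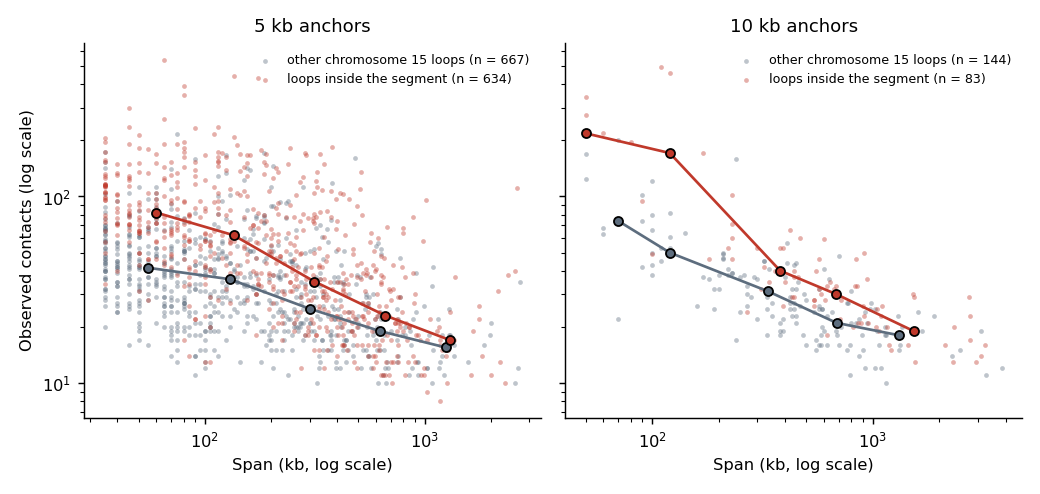
Observed contacts (log scale) against span (kb, log scale) for loops with 5 kb anchors (left) and 10 kb anchors (right), in red inside the segment and in grey on the rest of chromosome 15. Joined points are medians of 5 span classes: with 5 kb anchors the red line lies above the grey line throughout and comes closest to it at 1 Mb or more, and the 10 kb medians under 200 kb rest on few loops.

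The segment as a whole also held more listed loops for its length. It had 24.9 loops per Mb (exact Poisson 95% interval 23.1 to 26.8), against 16.5 below it (15.3 to 17.9) and 14.2 above it (12.2 to 16.5), where the covered length runs from the first to the last loop of the chromosome. Against both flanks together, 16.0 per Mb, the ratio was 1.56. Within the segment the 5 Mb windows held from 12.9 to 35.2 loops per Mb. The intervals above are for whole parts and do not measure this spread between windows, whose counts are smaller. Outside, such windows held from 9.48 to 23.6 below the segment and from 11.6 to 20.3 above it. The windows inside that begin at 71.105 Mb (35.2) and 76.105 Mb (29.2) stood furthest above these ranges. Those at 61.105 Mb (25) and 66.105 Mb (25.6) lay just above them. The windows at 81.105 Mb (18.6) and 86.105 Mb (12.9) lay within them. In these 5 Mb windows the depth was higher throughout, while the surplus in loops per Mb was not seen in all of them.

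The surplus lay mainly in loops of 200 kb or more. Under 100 kb the segment had 6.67 loops per Mb (5.76 to 7.68) against 5.42 (4.79 to 6.09) outside, intervals that overlap. From 200 to 500 kb it had 7.64 (6.67 to 8.72) against 4.27 (3.72 to 4.88), a ratio of 1.79. Between 500 kb and 1 Mb it had 4.55 (3.81 to 5.40) against 2.15 (1.76 to 2.59), a ratio of 2.12, and with 5 kb anchors alone that ratio was 2.74. For loops of 1 Mb or more the ratio was 1.84. With 10 kb anchors alone, of which the segment held 83, the ratio over all spans was 1.02. It was 0.751 for spans of 200 to 500 kb, 1.13 from there to 1 Mb and 1.68 at 1 Mb or more, where 0.730 loops per Mb (0.452 to 1.12) stood against 0.433 (0.272 to 0.656), intervals that overlap. The median span was therefore 245 kb inside and 170 kb outside, and with 5 kb anchors 210 kb against 125 kb. On the 22 other chromosomes the median span ran from 120 to 170 kb.

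**Figure D3:**
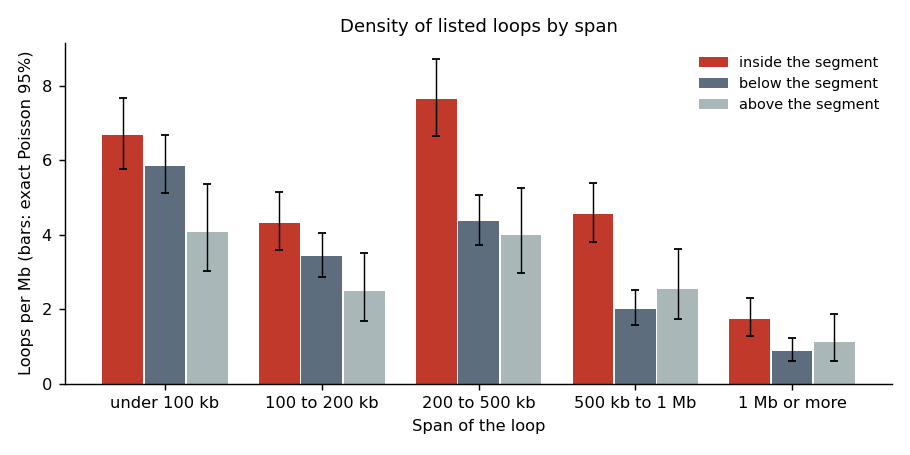
Loops per Mb in 5 classes of span, inside the segment (red), below it (dark grey) and above it (light grey). Error bars are exact Poisson 95% intervals for counting error, and the bars inside stand clear of both flanks at 200 to 500 kb and at 500 kb to 1 Mb.

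Several other features of the loops differed between inside and outside, and their part in the surplus was not tested. Anchors of 5 kb made up 88.4% of the loops inside and 82.2% outside. All 4 q-values were at or below 0.1 for 84.0% of the loops inside and for 71.4% outside. The number of significant pixels merged into a loop was a median 1.33 times that of matched loops, with wide quartiles of 0.75 and 2.33. By strength, not matched for span or anchor width, the surplus was of like size in each class. The ratio of loops per Mb was 1.44 for loops with under 2.5 times the expected contacts, 1.64 at 2.5 to 4 times, 1.60 at 4 to 8 times and 1.44 at 8 times or more. Strength itself rose with span, from a median of 2.54 under 100 kb to 5.36 at 1 Mb or more inside. How many of the loops would be listed at the depth of the flanks cannot be read from a list of loops.

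Members were frequent among the list's highest counts but not among its strongest loops. Of the 468 loops with the highest counts in the list (1%), 51 lay in the segment (10.9%), against 9 on the rest of chromosome 15. Ranked by the ratio of observed to expected contacts, the segment had 6 of the top 468 and the rest of chromosome 15 had 11. Its share of the whole list, 1.53%, lies between these values.

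The highest count was 541 (exact Poisson interval 496 to 589), for the loop of 65 kb between 65610001-65615000 and 65675001-65680000. The donut expectation there was 38.5, and 39 significant pixels had been merged into this one loop. Its count was 16.6 times that of matched loops, while its depth was higher by 1.57 on the log2 scale. Next came a 10 kb loop of 110 kb from 84110001 to 84220001 with 494 contacts (57.4 expected) and one of 120 kb from 65470001 to 65590001 with 462 (114 expected). Then followed the 5 kb loops from 74925001 to 75060001 with 440 contacts (27.9 expected) and from 75320001 to 75495001 with 433 (25.5 expected), each named by the starts of its anchors. The 5 therefore fall at 3 places: near 65.6 Mb, near 75 Mb and near 84 Mb.

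Where at least 1 contact was expected, the highest ratio belonged to a loop of 800 kb from 78240001 to 79040001, with 68 contacts against 1.97 expected (34.5 times). The loop from 81270001 to 81555001 had 171 against 9.78 (17.5 times), the one from 80745001 to 81260001 had 136 against 8.30 (16.4 times), and the one from 86775001 to 87285001 had 110 against 6.83 (16.1 times). The remaining loop of these 5, from 75320001 to 75495001, was also among the 5 highest counts. These are loops of 175 to 800 kb, longer than 4 of the 5 with the highest counts.

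The 5 longest loops spanned 2750 to 3220 kb, all with 10 kb anchors and 13 to 23 contacts. The longest ran from 72520001 to 75740001 with 16 contacts (2.13 expected). The anchor at 72520001 was used again by another of the 5, a loop of 2770 kb from 69750001 with 17 contacts. Only the loop of 2750 kb from 86400001 to 89150001, with 23 contacts, had an expectation above 5 (6.96).

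Anchors were shared more often inside the segment. Merging anchors that overlap gave 563 anchors (19.6 per Mb) with on average 2.55 loops each, against 843 (16.6 per Mb) with 1.92 loops each on the rest of chromosome 15. At least 5 loops met at 88 anchors (15.6%), against 59 (7.0%) outside. On the 22 other chromosomes this share ran from 5.22 to 8.39%, and loops per anchor from 1.88 to 2.13. Chromosome 19, with 25.3 loops per Mb, had about as many loops for its length as the segment and was the highest of the 22 in both measures. At least 1 anchor was shared with another loop by 94.8% of the loops inside and by 88.2% outside, but with anchors merged within 10 kb these shares were 98.0% and 98.5%, so that difference turned. The share of anchors with at least 5 loops was then 29.1% inside and 17.1% outside.

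The anchor with the most loops, 75740001-75750000, held 15, of which 9 ran to lower and 6 to higher positions. Their spans ran from 80 to 3220 kb and their counts from 11 to 153. The anchor 66990001-66995000 held 11 loops, 6 and 5 in the 2 directions, with 17 to 197 contacts. Another 3 anchors held 10 loops each. At 71730001-71740000 all 10 ran to lower positions, over at most 680 kb, and had 16 to 180 contacts. Those of 70390001-70400000 (10 to 64 contacts) and 74830001-74840000 (13 to 191 contacts) ran both ways.

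**Figure D4:**
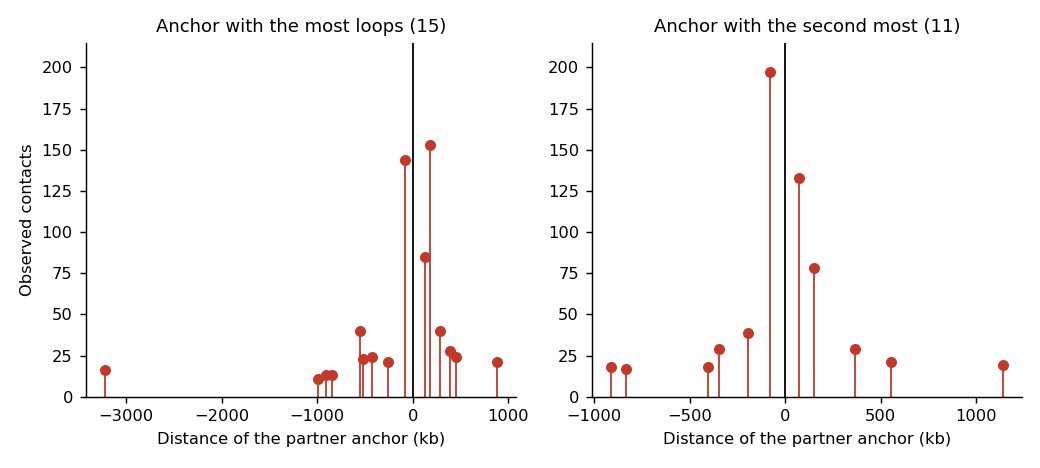
Observed contacts of each loop at the anchor with the most loops (left, 15 loops) and at the anchor with the second most (right, 11 loops), against the distance of the partner anchor in kb (negative towards lower positions). In both panels the counts above 100 belong to partners within 200 kb, and loops run in both directions.

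Linked through shared anchors, the loops inside formed 50 chains. The largest joined 430 loops and 284 anchors from 62755001 to 79160000, or 16.4 Mb. Another of 127 loops ran from 75620001 to 82495000 (6.875 Mb), overlapping the first, and a chain of 57 loops ran from 85130001 to 89880000. Outside the segment chromosome 15 had 147 chains, the longest in anchors joining 103 of them over 7.05 Mb. On the 22 other chromosomes the chain with the most loops held between 65 and 183 loops, fewer than the 430 here. A chain grows with the number of listed loops, and chains were not compared at equal numbers.

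Positions inside were typically spanned by more loops. At steps of 100 kb, a median of 9 loops spanned a position inside (quartiles 7 and 13, at most 23), against 5 outside (quartiles 3 and 7, at most 16). The share of the length under at least 1 loop was nevertheless alike, 95.9% inside and 96.1% outside. The longest stretch inside with no anchor ran from 87290001 to 88785000 (1495 kb) and was spanned by 7 loops. A stretch of 835 kb from 82495001 to 83330000 held no anchor and was spanned by no loop, and it begins where the chain of 127 loops ends.

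At the lower end the depth did not rise at the position given. Just outside, the 26 matched loops of the last Mb had a median log2 depth of 0.06. The first Mb inside held only 5 loops, and the 4 that could be matched had a median of -0.47, lower than outside by 0.54 on the log2 scale. The second Mb inside stood at 0.75 (17 loops) and the third at 1.09 (29 loops). With windows of 2 Mb, the change from outside to inside was 0.45.

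Single loops near this end varied in depth. The loops nearest to the end on the outside share the anchor at 61095001, and ran to it from 60685001, 60820001 and 60875001 with 12, 27 and 46 contacts (log2 depth -0.77, -0.16 and 0.31). The first loop inside, from 61460001 to 62125001, had 26 contacts and a depth of 0.63. The next 3, chosen after their values were seen, began at 61615001, 61840001 and 61910001, had 17, 13 and 21 contacts, and stood at -0.96, -0.71 and -0.24. These were weaker calls: the largest of the caller's q-values was 0.70, 0.64 and 0.12 for them, against 0.00016 for the first loop. Taken 10 at a time by midpoint, the matched loops inside had medians of 0.19 up to 1.375 Mb from the end, 0.80 up to 1.755 Mb and 1.03 up to 2.36 Mb. The 10 nearest outside had a median of 0.15, ranging from -0.77 to 1.35, so single loops overlapped widely.

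At the upper end the depth fell close to the position given. In the last Mb inside, 24 matched loops had a median log2 depth of 0.80, and in the first Mb outside 15 loops had 0.04, a difference of 0.76. The Mb before that held only 2 loops, with 1 matched at -0.16, next to the long stretch without anchors. By groups of 10 matched loops, those nearest to the end inside had a median of 0.90 (-0.08 to 1.36) and those nearest outside 0.03 (-0.14 to 0.51). The next 10 inside stood at only 0.22 (-0.23 to 0.93), within the range of the loops outside.

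Single loops at this end overlapped in depth. The 4 loops inside nearest to the end share the overlapping anchors at 89870001 and 89875001. Those that begin at 89170001, 89430001 and 89630001 had 13, 40 and 35 contacts and depths of -0.23, -0.08 and 0.45, and the one that begins at 89785001 had 116 contacts and a depth of 1.01. Of the next, the loop from 89750001 to 89785001 had 115 contacts and a depth of 0.89. The first loop outside, from 89900001 to 89970001, had a higher count, 140 against 16.8 expected, but a depth of 0.43. Its neighbour from 89900001 to 90015001 had 128 contacts and a depth of -0.11. The depths of these loops outside fall within the range of the 4 nearest inside, so the step is seen in the medians and not in each loop.

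**Figure D5:**
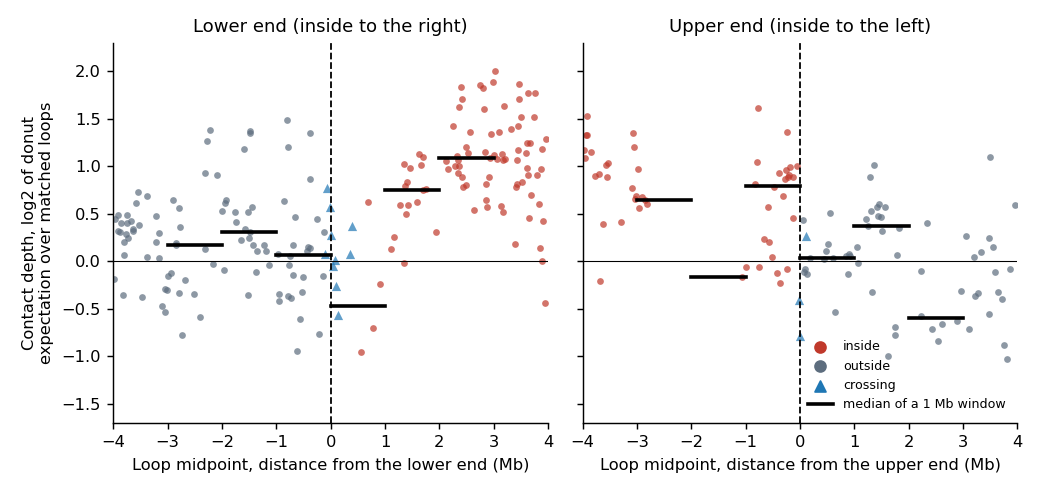
Contact depth of single loops (log2 of donut expectation over matched loops) within 4 Mb of the lower end (left) and the upper end (right), by distance of the loop midpoint from the end in Mb. Red points lie inside, grey points outside and blue triangles are loops that cross, and black bars are medians of 1 Mb windows: the first Mb inside the lower end stands at -0.47, and the last Mb inside the upper end at 0.80.

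Loops that cross an end had the depth of the flanks. Of the 15, 13 could be matched, with a median log2 depth of 0.08 (ratio 1.05, range -0.79 to 0.78), and 1 of them (7.69%) was at least 1.5 times the matched depth, against the 13.5% outside. In observed contacts 3 of the 13 reached 1.5 times the matched count, against 22.2% outside. Except for 1 loop across the upper end, their anchors reach no further than 62125001 inside the lower end and 89750001 inside the upper end. In the first Mb inside the lower end, the 4 matched loops had a median log2 depth of -0.47. The nearest of these, from 61460001 to 62125001, stood at 0.63.

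Across the lower end the highest count was 79 (exact Poisson interval 62.5 to 98.5; 7.90 expected), for a loop of 330 kb from 60875001 to 61205001. It had 3.04 times the matched count and a depth of 0.78, the highest of the 13. The others with the most contacts were 10 kb loops from 60870001 to 61300001 (45 contacts, depth 0.57) and from 61090001 to 61280001 (39, depth 0.01), and 5 kb loops from 61095001 to 61180001 (40, depth -0.05) and from 60800001 to 61205001 (31, depth 0.08). The remaining 6 had 10 to 29 contacts. The anchors at 60870001 and 60875001 overlap and together sent 5 loops across the end, and 3 of the 11 crossing loops ended at 62120001 or 62125001, the anchor of the first loop inside.

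Across the upper end 3 short loops had counts of 37, 19 and 37. The 10 kb loop from 89750001 to 89980001 had a depth of -0.41, the 5 kb loop from 89750001 to 90015001 one of -0.79, and that from 89875001 to 90115001 one of 0.27. The first 2 leave from the anchor at 89750001, whose loop to 89785001 inside the segment stood at 0.89. The fourth, from 85840001 to 91590001, spanned 5750 kb with 12 contacts against 0.0786 expected. It rested on a single pixel and had too few loops of like span to be matched.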

How the data were processed

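The data are 1 loop list for 6 Micro-C replicates of diploid-sorted HAP1 cells; whether these were separate cultures is not stated in the labels. The submitters' processing notes name BWA and hg19 without a role. Per the file headers, juicer_tools 1.22.01 wrote the list, with the column names of the HiCCUPS caller. On pooling, sequencing depth and caller settings nothing is given in the sources used here. For each loop the authors deposited the raw observed count, 4 expected values (a score on the count scale that need not be whole), q-values, the number of merged pixels and a cluster radius in bp, which is not reported.

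Loops were selected by anchor position, printed 1-based. For each loop, the log2 ratio of its value to the median of the 15 nearest chromosome 15 loops outside the segment was taken (same anchor width, within 0.32 of its span on the log2 scale, itself left out, ties at the 15th distance kept). With fewer than 15 such loops, 38 of 717 members stayed unmatched. No test across loops was run, since loops are not replicates. Density has exact Poisson and shares exact binomial 95% intervals. Anchors overlapping by 1 bp or more were merged, and chains are connected sets of anchors. Loops named are the 5 members with the highest counts, ratios (expectation at least 1) and spans, the 5 anchors with the most loops, all loops crossing an end or the 5 with the highest counts if over 10, and those nearest the ends. Members, lists and rules were chosen with earlier results of these data known. Alternatives varied the reference loops, the matching, the expected value, anchor width, q-values, merged pixels, windows, merging and segment ends. The tools were networkx 3.6.1, scipy 1.17.1, pandas 2.3.3, numpy 2.4.6 and matplotlib 3.10.9 under Python 3.11.15, and the matching was tested on simulated data.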

Additional observations from a re-analysis of the deposited data

How the results depend on the processing

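Of 75 alternative values, 61 stayed within the spread over loops, or for shares and counts within the limits used, 11 moved and 3, all steps at an end, turned. For loops that cross an end, log2 0.08 in the report, 6 of 12 alternatives gave a value below 0 within that spread, down to -0.32 with the horizontal expectation and -0.29 with fixed span classes, and the highest was 0.10. The matched depth of the loops inside, log2 0.88, lay between 0.82 and 1.09 in all its alternatives, the highest, 1.09, with loops above the segment as the only reference. That reference also gave 0.83 for observed contacts (0.65 in the report), -0.28 for the ratio of observed to expected contacts (-0.20) and 78.8% of loops at 1.5 times the matched depth (68.9%), a share that was 64.1% with fixed span classes and 63.0% with the horizontal expectation. Observed contacts gave 0.76 with the nearest 30 reference loops. With 10 kb anchors only, observed contacts gave 0.46, the ratio of observed to expected contacts -0.36, the loops per Mb a ratio of 1.02 in place of 1.56, and the difference in median span 135 kb in place of 75 kb. The step at the lower end, -0.54, became 0.45 with windows of 2 Mb and 0.69 between the second Mb inside and the first Mb outside, an alternative chosen after seeing the data. At the upper end that alternative gave -0.20, from 1 loop, in place of 0.76. For the other moved values the cause was not tested. No paired analysis was possible because the replicates form 1 group in 1 pooled list, and none could be left out. Depth limits single loops: the median loop inside has 46 contacts and the lowest count listed is 8.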

Other observations

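An expectation under 1 contact was held by 4 loops inside the segment (0.558%), by 11 of the other chromosome 15 loops (1.36%) and by 202 loops of the other chromosomes (0.446%). All 4 ran over 2160 to 2950 kb from anchors between 75.6 and 76.1 Mb to anchors between 78.2 and 79.0 Mb. The first, from 75620001 to 78240001, had 111 contacts against 0.0914 expected. Its ratio of 1214 was the highest of all loops inside and rests on that small expectation. The others were loops from 76005001 to 78165001 with 31 contacts (0.413 expected), from 75980001 to 78185001 with 13 (0.753 expected) and from 76070001 to 79020001 with 13 (0.893 expected). Of the other 3, the 2 with the lower expectations lie wholly within the first in position. The anchor at 78240001 also carries the loop with the highest ratio among members with an expectation of at least 1, and the anchor at 75620001 is where the chain of 127 loops begins.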
